A study of Homo sapiens with 9 samples.

Results

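Tight junctions are the belts of contact near the apex of epithelial cells that limit leakage between cells. Claudins and other membrane proteins form the strands, cytoplasmic plaque proteins tie the strands to actin, and the PAR and Crumbs complexes set where along the cell side the belt forms. Human pluripotent stem cells grow as an epithelium, and cells that pass through the primitive streak, the embryonic structure that gives rise to mesoderm and endoderm, leave that epithelium.

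The genes described here were chosen by symbol: every numbered claudin, the TJP scaffolds, and a fixed set of adhesion, plaque and polarity genes, kept where a probe set of the array carried that symbol alone. The rule found 38 genes of 18417 measured, on 39 probe sets. They comprised 23 claudins, 2 junctional adhesion molecules (JAM2 and JAM3), 2 MARVEL-domain proteins (MARVELD2 and MARVELD3), 5 plaque proteins and 6 polarity proteins. OCLN shared its probe set with the pseudogene OCLNP1, and F11R, MAGI1 and CLDN25 had no probe set of their own here, so these genes are not analysed here. MARVELD2 had 2 probe sets with the same values on every array. CLDN22 and CLDN24 lie side by side and are close in sequence, as are CLDN6 and CLDN9, so their probe sets may not fully separate them.

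RNA came from H9-TCF7L1, a derivative of the H9 human embryonic stem cell line with a transgene for TCF7L1, a DNA-binding factor that mostly represses Wnt targets. The groups were cells in PS differentiation medium for 48 h with doxycycline at 1 ug/ml for 48 h, cells in PS medium for 48 h alone, and untreated cells kept in mTeSR1, which sustains pluripotent growth. Each group had 3 arrays. All groups carried the transgene, no group received doxycycline without PS medium, and the labels give neither the promoter of the transgene nor whether the line is a clone.

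TCF7L1 intensities were 13100.2, 12433 and 2699 with doxycycline, 1275, 1542 and 1611 in PS medium, and 3718, 3878 and 3572 in untreated cells. Doxycycline replicate 3 therefore lay below the untreated arrays for the induced gene, and the doxycycline results are given with and without it. Of the pluripotent cell markers, 9 of 11 were measured. All 9 exceeded an intensity of 156 in every group, the level under which 95% of 341 olfactory receptor genes lay. That level serves here as a mark of dimness and was chosen after the values were seen. Of the tight junction genes, 28 passed it in at least 1 group, and the 10 that did not were all claudins (CLDN2, CLDN8, CLDN9, CLDN14, CLDN16, CLDN17, CLDN18, CLDN20, CLDN22 and CLDN24).

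Intensities are the deposited linear values, and differences are limma estimates on quantile-normalized log2(value + 16), which understates the change of dim genes. A gene is said to have risen or fallen where its Benjamini-Hochberg adjusted p over all 18417 genes was under 0.05. In RNA from whole cultures, fewer cells that express a gene and less of its RNA per cell cannot be told apart.

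With doxycycline in PS medium, 14 of the 38 genes rose and 3 fell relative to PS medium alone. Over all genes tested, 8.91% rose and 8.44% fell, 17.4% in all, against 36.8% and 7.89% of the tight junction genes. Their median log2 difference was 0.11, beside 0.002 for all genes. In PS medium without doxycycline the direction was mainly the other way: 15 of the 38 genes fell and 3 rose relative to untreated cells (39.5% and 7.89%). Over all genes 15.7% fell and 14.2% rose there, 29.8% in all, and the medians were -0.21 for the tight junction genes and -0.006 for all genes. The PS arrays enter both comparisons, so a low or high PS array moves them in opposite directions.

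**Figure D1:**
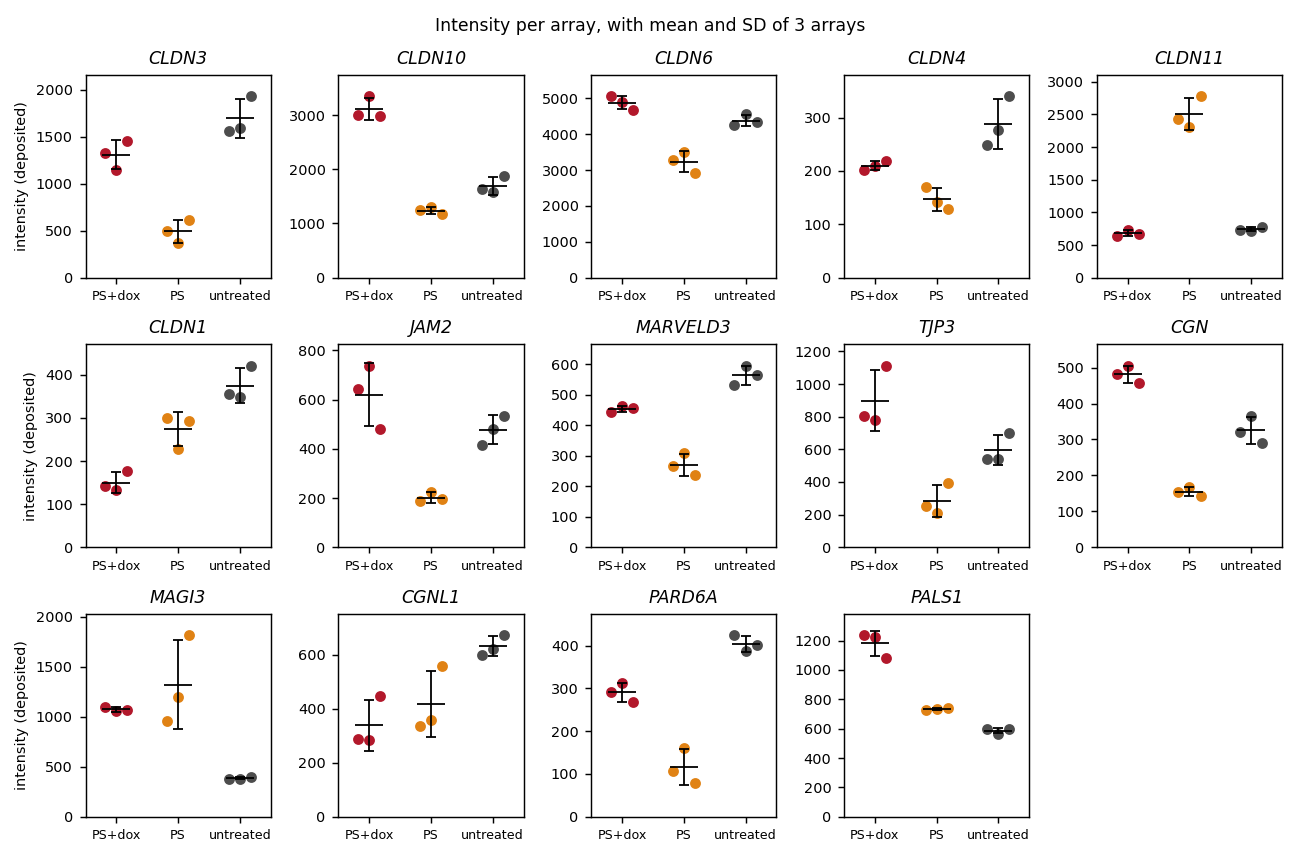
Deposited intensity (vertical axis, linear, from 0) of the 14 genes that changed by at least 1.5-fold with doxycycline or in PS medium. Points are single arrays and bars are the mean and SD of 3 arrays, for PS medium with doxycycline (red), PS medium (orange) and untreated cells (grey). CLDN3, TJP3, CGN, JAM2 and PARD6A are lowest in PS medium alone, CLDN11 is highest there, and CLDN1 is lowest with doxycycline.

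Among the claudins, the four-pass membrane proteins of the strands, 5 of 23 rose with doxycycline and 2 fell. Those shares were 21.7% and 8.7%, beside 8.91% and 8.44% of all genes. CLDN3, a sealing claudin, had intensities of 1327, 1146 and 1450 with doxycycline, 498, 372 and 609.5 in PS medium, and 1561, 1597 and 1931 in untreated cells. Every doxycycline array was above every PS array, and every untreated array above every doxycycline array. It was 2.62-fold higher with doxycycline than in PS medium (log2 1.39 ± 0.16, SE, n = 3 per group, limma adjusted p = 1.43e-04). In PS medium it stood 3.45-fold below untreated cells (log2 -1.79 ± 0.16, limma adjusted p = 1.14e-05).

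CLDN10, whose forms build channels for ions between cells, had 2998, 3345 and 2987 with doxycycline, 1247, 1297 and 1166 in PS medium, and 1636, 1574 and 1884 in untreated cells. The 3 groups did not overlap, and the doxycycline arrays lay above both others. The gene rose 2.53-fold with doxycycline over PS medium (limma adjusted p = 3.06e-06), stood 1.39-fold below untreated cells in PS medium, and stood 1.82-fold above untreated cells with doxycycline.

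CLDN6, a claudin of early embryonic epithelia that is used as a surface marker of pluripotent cells, was bright throughout. Its intensities were 5058, 4902 and 4680 with doxycycline, 3295, 3494 and 2924 in PS medium, and 4249.9, 4558 and 4328 in untreated cells. The doxycycline arrays were above all others and the PS arrays below. It rose 1.53-fold with doxycycline (limma adjusted p = 1.12e-04) and fell by 0.45 on the log2 scale in PS medium against untreated cells. CLDN7, another epithelial claudin, followed with smaller changes: 2962, 2884 and 2883 with doxycycline, 2414, 2314 and 1969 in PS medium, and 2674, 2919.7 and 2699.8 in untreated cells. Its rise with doxycycline was 1.34-fold and its fall in PS medium 1.26-fold.

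CLDN4, which like CLDN3 is a receptor for the enterotoxin of a Clostridium, was dimmer, with 202, 209 and 218 with doxycycline, 170, 142 and 128 in PS medium, and 248, 276 and 339.8 in untreated cells. The PS arrays were near or below the olfactory receptor level of 156. It fell 1.84-fold in PS medium (log2 -0.88 ± 0.12) and rose 1.39-fold with doxycycline (log2 0.48 ± 0.12, limma adjusted p = 0.0216). That rise no longer passed without doxycycline replicate 2 (adjusted p = 0.0644) or 3 (0.0564), or without PS replicate 2 (0.0534) or 3 (0.0659).

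CLDN11, the claudin of myelin and of Sertoli cells, moved against the others. It had 643, 733 and 672 with doxycycline, 2432, 2309 and 2776 in PS medium, and 736, 712 and 772 in untreated cells. The PS arrays stood apart, while the doxycycline and untreated arrays overlapped. Its level was 3.60-fold lower with doxycycline than without (log2 -1.85 ± 0.08, limma adjusted p = 3.71e-07). In PS medium alone it was 3.23-fold above untreated cells (log2 1.69 ± 0.08). With doxycycline it differed from untreated cells by -0.15 on the log2 scale (95% interval -0.34 to 0.03, limma adjusted p = 0.201).

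CLDN1, the claudin of the skin barrier, was lowest with doxycycline: 141, 132 and 177, against 299, 228 and 294 in PS medium and 355, 348 and 421 in untreated cells. It fell 1.74-fold with doxycycline relative to PS medium (log2 -0.80 ± 0.12, limma adjusted p = 0.00104) and 2.34-fold relative to untreated cells. In PS medium it was 1.34-fold below untreated cells, a fall that no longer passed without PS replicate 2 (adjusted p = 0.0825) or untreated replicate 3 (0.0888).

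The other 16 claudins did not pass in the doxycycline comparison, with log2 differences from -0.16 to 0.26. Besides the 10 dim ones these were CLDN5, CLDN12, CLDN15, CLDN19, CLDN23 and CLDN34. In PS medium against untreated cells CLDN34 fell by 0.39 and CLDN12 by 0.20 on the log2 scale. CLDN12, an atypical claudin, lost that call without PS replicate 2 (adjusted p = 0.0831) or 3 (0.0566) or untreated replicate 2 (0.0762) or 3 (0.0878), and after median centring (0.154). None of the 10 dim claudins passed in either comparison by limma. At an unadjusted p under 0.05, 1 was higher with doxycycline, and in PS medium 1 was higher and 1 lower.

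**Figure D2:**
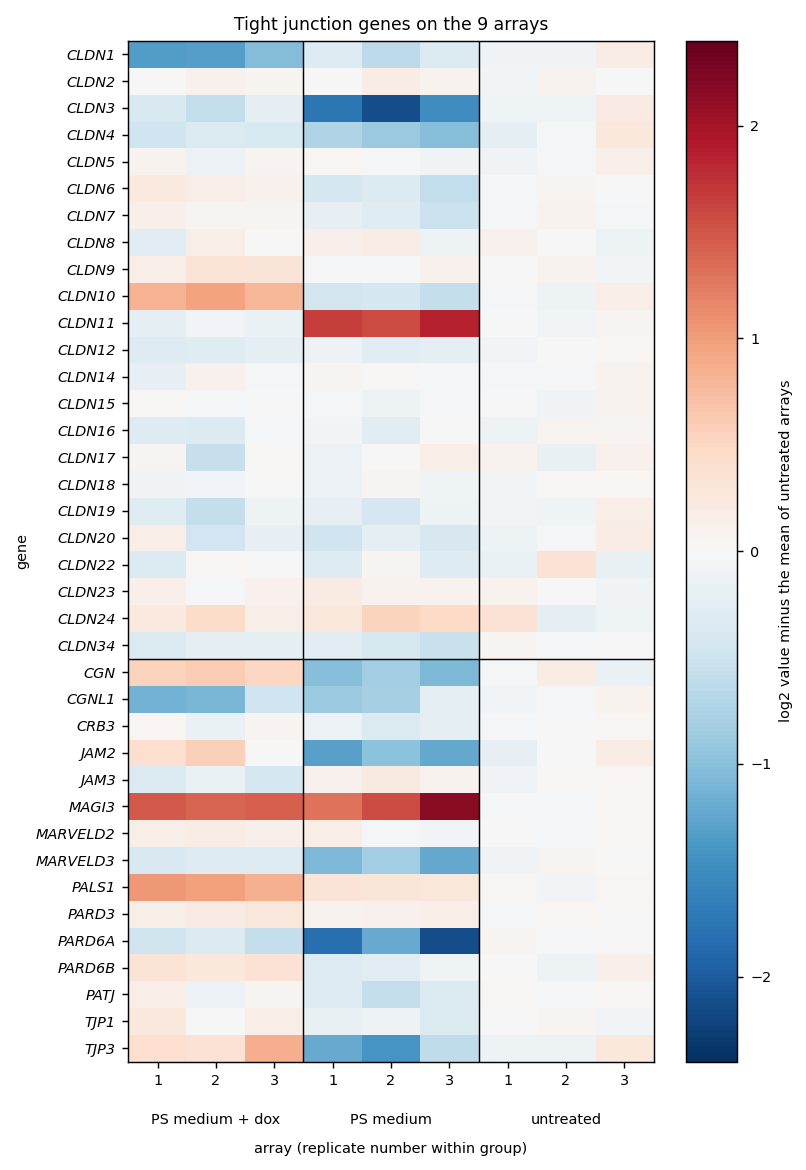
Log2 value of each of the 38 genes on the 9 arrays minus the mean of the untreated arrays (colour scale, red higher and blue lower), claudins above the line and other genes below it. CLDN3 and PARD6A are the deepest blue on the PS arrays, CLDN11 is red on the PS arrays alone, and MAGI3 is red on all 6 arrays in PS medium.

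The junctional adhesion molecules, immunoglobulin-type receptors at the belt, moved apart. JAM2 had 642, 737 and 482 with doxycycline, 186, 226 and 194 in PS medium, and 416, 480.5 and 535 in untreated cells. All PS arrays lay below all others. JAM2 rose 2.84-fold with doxycycline (log2 1.5 ± 0.15, limma adjusted p = 6.23e-05) and fell 2.26-fold in PS medium (log2 -1.18 ± 0.15). JAM3 had 729, 839.7 and 684 with doxycycline, 977, 1087 and 1003 in PS medium, and 846, 935 and 935 in untreated cells. It fell 1.36-fold with doxycycline (limma adjusted p = 0.00375), and its difference of 0.14 between PS medium and untreated cells did not pass.

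MARVELD3, a four-pass protein of the occludin family, had 444, 463 and 456 with doxycycline, 265, 308 and 237 in PS medium, and 532, 595 and 565 in untreated cells. It rose 1.64-fold with doxycycline (log2 0.72 ± 0.10) and fell 2.06-fold in PS medium against untreated cells (log2 -1.04 ± 0.10), and no 2 groups overlapped. MARVELD2, or tricellulin, which sits where 3 cells meet, differed by 0.13 with doxycycline (95% interval -0.04 to 0.29) and by 0.02 in PS medium (-0.14 to 0.19), and passed neither test.

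In the plaque, 3 of 5 genes rose with doxycycline and 0 fell (limma, and 0 also at an unadjusted p under 0.05). The share that rose was 60%, beside 8.91% of all genes that rose and 8.44% that fell. In PS medium against untreated cells 3 of the 5 fell and 1 rose, 60% and 20%, beside 15.7% and 14.2% of all genes. TJP3, a zonula occludens scaffold that binds claudin tails, had 806, 779 and 1112 with doxycycline, 249.8, 207 and 392 in PS medium, and 541, 539.9 and 700.4 in untreated cells. Within each group replicate 3 was the highest, and each doxycycline array exceeded all PS and all untreated arrays. TJP3 rose 3.08-fold with doxycycline (log2 1.62 ± 0.21, limma adjusted p = 3.21e-04) and fell 2.12-fold in PS medium (log2 -1.08 ± 0.21). TJP1, the zonula occludens scaffold present in most epithelia, moved much less: 3463, 2969 and 3292 with doxycycline, 2666, 2766 and 2335 in PS medium, and 2952, 3074 and 2814 in untreated cells. Its rise was 1.28-fold (log2 0.35 ± 0.08, limma adjusted p = 0.00893), and its difference of -0.21 in PS medium did not pass (limma adjusted p = 0.0595).

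The cingulin pair, which connects the plaque to actomyosin, split. CGN had 481, 505 and 457 with doxycycline, 153, 168 and 142 in PS medium, and 320.4, 366 and 289 in untreated cells. It rose 2.88-fold with doxycycline (log2 1.53 ± 0.10, limma adjusted p = 5.72e-06) and fell 1.97-fold in PS medium. The 3 groups did not overlap, the doxycycline arrays being highest and the PS arrays near the olfactory receptor level. CGNL1, or paracingulin, had 287, 283 and 449 with doxycycline, 337, 357 and 557 in PS medium, and 600.1, 623 and 672 in untreated cells. Replicate 3 was the highest in each group here too, and the doxycycline and PS arrays overlapped. CGNL1 fell 1.56-fold in PS medium (log2 -0.64 ± 0.19, limma adjusted p = 0.0302) and did not pass with doxycycline (log2 -0.27 ± 0.19). Its fall in PS medium was lost without PS replicate 1 (adjusted p = 0.111) or 2 (0.0902), or without untreated replicate 1 (0.0672), 2 (0.0705) or 3 (0.0923).

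MAGI3, a PDZ-domain scaffold, was above untreated cells in PS medium with or without doxycycline. Its intensities were 1099, 1055 and 1064 with doxycycline, 959, 1192 and 1812 in PS medium, and 379, 376 and 398 in untreated cells. The untreated arrays stood apart and the doxycycline arrays fell within the wide range of the PS arrays. The rise over untreated cells was 2.70-fold with doxycycline (limma adjusted p = 1.05e-04) and 3.20-fold in PS medium alone (log2 1.68 ± 0.17, limma adjusted p = 3.17e-05). The log2 difference between PS medium with and without doxycycline was -0.24 (95% interval -0.62 to 0.13), and 0.002 without PS replicate 3.

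Of the 6 polarity genes, 4 rose with doxycycline and 0 fell (limma, and 0 also at an unadjusted p under 0.05). The share that rose was 66.7%, beside 8.91% of all genes that rose and 8.44% that fell. In PS medium against untreated cells 2 of the 6 fell and 1 rose, 33.3% and 16.7%, beside 15.7% and 14.2% of all genes. PARD6A, an adaptor between atypical protein kinase C and PARD3, had 291, 313 and 269 with doxycycline, 108, 161 and 78.8 in PS medium, and 424, 388 and 401 in untreated cells. The groups did not overlap, and the PS arrays lay near or below the olfactory receptor level. PARD6A rose 2.39-fold with doxycycline (log2 1.25 ± 0.18, limma adjusted p = 8.14e-04) and fell 3.28-fold in PS medium (log2 -1.71 ± 0.18). Its paralog PARD6B had 1769, 1692 and 1792 with doxycycline, 1124, 1177 and 1339 in PS medium, and 1376, 1295 and 1513 in untreated cells. PARD6B rose 1.45-fold with doxycycline, and in PS medium its log2 difference of -0.23 did not pass (limma adjusted p = 0.0585).

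PALS1, the Crumbs-complex scaffold, was the one polarity gene that rose in both comparisons. It had 1235, 1226 and 1084 with doxycycline, 727, 736 and 738 in PS medium, and 598, 565 and 598 in untreated cells. No groups overlapped. It rose 1.59-fold with doxycycline (log2 0.67 ± 0.07, limma adjusted p = 9.59e-05) and 1.22-fold in PS medium (log2 0.29 ± 0.07, limma adjusted p = 0.0106). PATJ, the multi-PDZ partner of PALS1, had 1107, 923 and 1035 with doxycycline, 797, 669 and 806 in PS medium, and 1002, 954 and 987 in untreated cells. It rose 1.34-fold with doxycycline and fell 1.32-fold in PS medium. CRB3, the small Crumbs protein of epithelia, and PARD3 passed in neither comparison, with log2 differences of 0.23 and 0.09 with doxycycline.

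Without doxycycline replicate 3, the array with low TCF7L1, 13 genes rose and 3 fell, all 16 among the 17 called with it, and CLDN4 was the one lost. The rises were then 2.75-fold for TJP3, 3.17-fold for JAM2, 2.94-fold for CGN, 2.48-fold for CLDN3 and PARD6A, 2.59-fold for CLDN10, 1.65-fold for PALS1, 1.63-fold for MARVELD3 and 1.57-fold for CLDN6. The falls were 3.59-fold for CLDN11 and 1.86-fold for CLDN1. Of the 17 genes, 8 had their smallest change on replicate 3, 7 on replicate 2 and 2 on replicate 1.

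**Figure D3:**
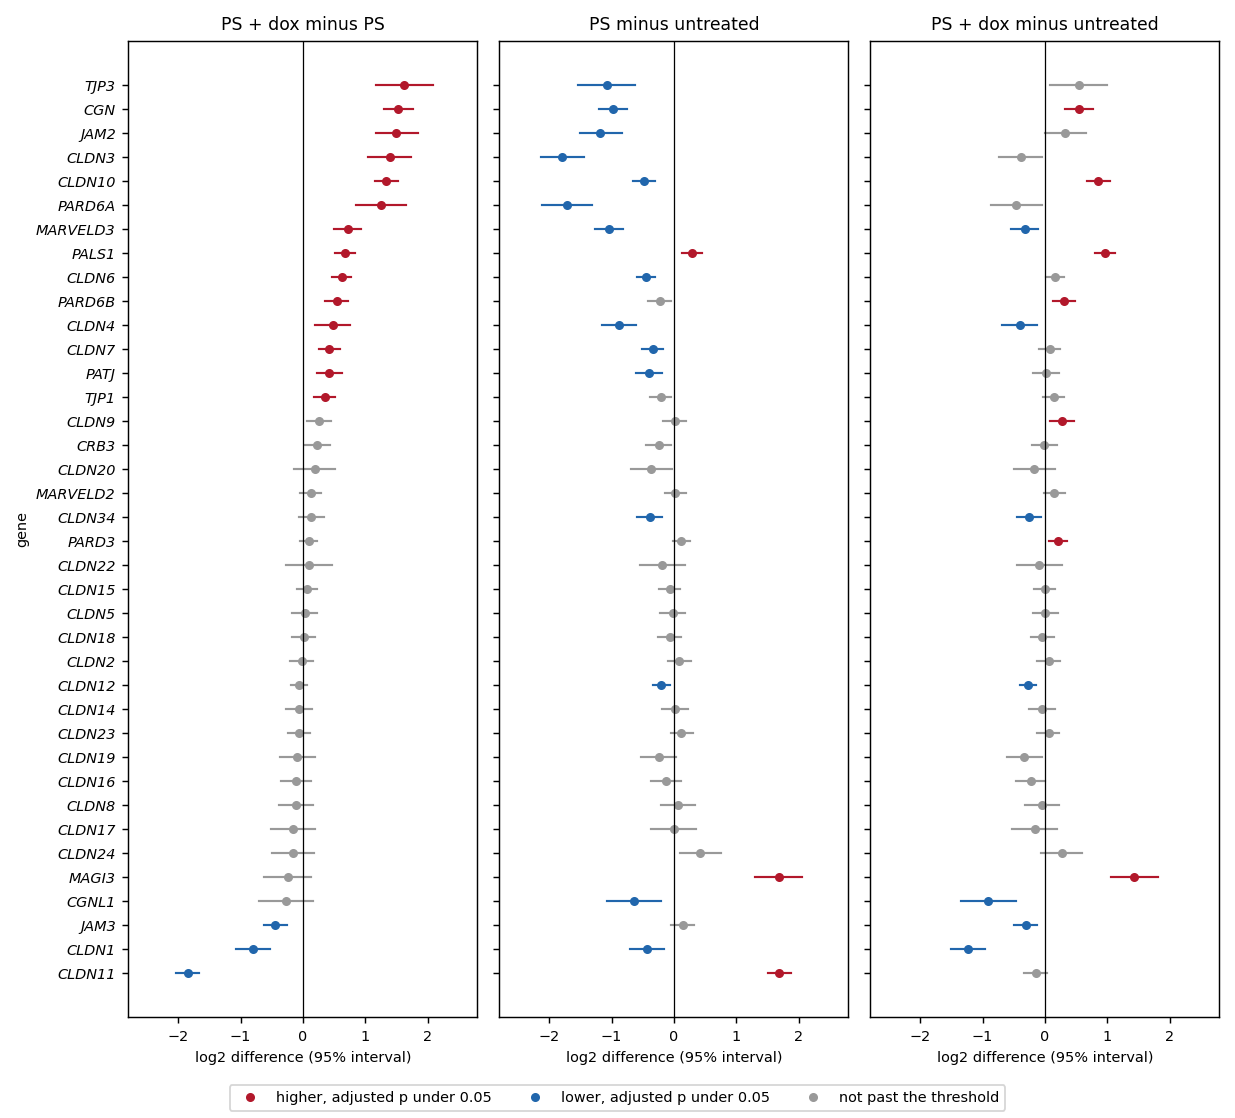
Log2 difference of each of the 38 genes with its 95% interval, for PS medium with doxycycline minus PS medium (left), PS medium minus untreated cells (middle) and PS medium with doxycycline minus untreated cells (right). Red and blue mark rises and falls at an adjusted p under 0.05 and grey marks the rest; the genes run down from TJP3 at 1.62 to CLDN11 at -1.85 by the left panel.

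Set against untreated cells, PS medium with doxycycline left 7 of the 38 genes higher and 7 lower, 18.4% each way. Those shares were near the 15.3% and 14.9% of all genes (30.3% in all). After median centring the split was 7 higher and 4 lower. MAGI3, PALS1 (1.94-fold), CLDN10, CGN (1.47-fold), PARD6B, CLDN9 and PARD3 were higher. CLDN1, CGNL1 (1.87-fold), CLDN4, MARVELD3, JAM3, CLDN12 and CLDN34 were lower. CLDN9, one of the dim claudins, lost its call on the values as deposited (adjusted p = 0.0786), after median centring (0.0530), and without doxycycline replicate 2 (0.105) or 3 (0.0995) or untreated replicate 1 (0.100) or 3 (0.112). PARD3 lost it without doxycycline replicate 2 (0.0631) or 3 (0.0916) or untreated replicate 1 (0.111) or 3 (0.0726). PARD6B lost it without untreated replicate 1 (0.0518) or 2 (0.0639). The count of lower genes was 3 without doxycycline replicate 1, 4 without doxycycline replicate 2 or 3, and 3 without untreated replicate 2 or 3.

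Several genes that fell in PS medium and rose with doxycycline over PS medium did not pass against untreated cells. CLDN3 with doxycycline differed by -0.39 (95% interval -0.74 to -0.05, limma adjusted p = 0.0844), TJP3 by 0.54 (0.08 to 1.00, 0.0727) and PARD6A by -0.46 (-0.87 to -0.05, 0.0864). CLDN6 differed by 0.16 (0.02 to 0.31, limma adjusted p = 0.0920). With the replicate number as a block these 4 and CLDN19 passed, at 0.00465 for CLDN19 (log2 -0.33), 0.00405 for CLDN3, 6.82e-04 for TJP3, 0.0403 for PARD6A and 0.0336 for CLDN6. JAM2 differed by 0.33 (limma adjusted p = 0.129) and passed without doxycycline replicate 3 (log2 0.49, 0.0210). For CLDN7, PATJ and TJP1 the intervals were -0.09 to 0.25, -0.19 to 0.23 and -0.03 to 0.31.

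Promoter windows are shown for 4 genes: 3 that rose at least 2.39-fold with doxycycline and have an E-box, CACCTG on either strand, which SNAI and ZEB repressors are known to bind, and CLDN11, which fell. They were chosen for that contrast after the values were seen. CGN (2.88-fold) and CLDN10 (2.53-fold) also rose and had no E-box in their windows, while CRB3, which did not pass, had 5. Each window runs from 250 bases before to 50 after a RefSeq start on GRCh38.p14, 5′ to 3′ on the gene's strand. TJP3 and CLDN11 each have 2 windows, of which 1 is shown. Capitals mark the E-box, which is absent from both CLDN11 windows and from the other TJP3 window. The other CLDN11 window holds 3 matches to the TCF/LEF letters given below. The CLDN3 window shown holds 1, at base 274. Windows of CLDN4, CLDN10 and TJP1, which also rose, hold these letters too.
CLDN3 (chr7:73770221-73770520, minus strand): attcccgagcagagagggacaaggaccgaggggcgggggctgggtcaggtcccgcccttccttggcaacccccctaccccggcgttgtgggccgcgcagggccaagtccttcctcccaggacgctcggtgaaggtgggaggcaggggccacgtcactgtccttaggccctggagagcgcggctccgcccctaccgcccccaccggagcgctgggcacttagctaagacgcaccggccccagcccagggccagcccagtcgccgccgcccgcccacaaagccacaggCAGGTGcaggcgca
PARD6A (chr16:67660710-67661009, plus strand): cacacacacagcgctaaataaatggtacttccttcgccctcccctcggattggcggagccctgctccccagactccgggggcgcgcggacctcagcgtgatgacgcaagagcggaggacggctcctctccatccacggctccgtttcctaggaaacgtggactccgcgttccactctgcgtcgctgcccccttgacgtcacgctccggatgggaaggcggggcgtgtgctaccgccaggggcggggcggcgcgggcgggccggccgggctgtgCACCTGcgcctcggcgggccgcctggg
TJP3 (chr19:3721487-3721786, plus strand): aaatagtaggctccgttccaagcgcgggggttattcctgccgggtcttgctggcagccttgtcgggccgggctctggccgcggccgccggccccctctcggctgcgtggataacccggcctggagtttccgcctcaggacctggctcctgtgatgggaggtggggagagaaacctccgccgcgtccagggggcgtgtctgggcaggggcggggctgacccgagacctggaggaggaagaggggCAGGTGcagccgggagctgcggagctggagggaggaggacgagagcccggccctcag
CLDN11 (chr3:170418618-170418917, plus strand): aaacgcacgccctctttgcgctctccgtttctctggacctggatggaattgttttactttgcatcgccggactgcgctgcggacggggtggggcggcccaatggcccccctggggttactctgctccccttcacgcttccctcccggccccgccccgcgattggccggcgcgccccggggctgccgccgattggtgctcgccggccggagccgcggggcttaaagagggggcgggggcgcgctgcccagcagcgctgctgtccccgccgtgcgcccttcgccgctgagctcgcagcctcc

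The E-box began at base 287 of the CLDN3 window, 274 of the PARD6A window and 244 of the TJP3 window shown. RefSeq windows were at hand for 28 of the 38 genes, 40 in all, and 12 of them (30%) held an E-box, beside 20.6% of 35116 windows of all genes. Among the 17 windows of genes that rose with doxycycline, 7 held it (41.2%), and among the 23 windows of the others, 5 (21.7%). That split uses the expression values described here, and some genes, such as TJP1 and CLDN14, gave several windows. The windows were not matched for base composition, GC being 33.7% in the CLDN17 window and 80% in that of CGNL1. Binding of a repressor was not tested. The TCF/LEF letters ACAAAG or TCAAAG, on either strand, were in 25% of the windows of tight junction genes and 26.2% of all windows. Split the same way, they were in 29.4% of the windows of genes that rose and 21.7% of those of the other members. The AP-2 letters GCCNNNGGC were in 30% of the windows of tight junction genes and 23.2% of all windows. Their split was 35.3% for genes that rose and 26.1% for the other members. The GRHL letters AACCNGTT, on either strand, were in 1 window, that of CGN at base 224, and in 1.73% of all windows. Their split was 5.88% and 0%. Each motif listed here thus had its larger share among windows of genes that rose, so that lean was not particular to the E-box. In the CLDN3 window an AP-2 match at base 279 overlaps the E-box by 1 base. The motifs were chosen after the expression values were seen, and a match is a description of the letters.

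Genes that act with or upstream of tight junctions were counted in the same fits. The shares over all genes were 8.91% higher and 8.44% lower with doxycycline, and 14.2% and 15.7% in PS medium. Regulators of epithelial identity rose with doxycycline in 9 of 12 measured cases with 0 falls (limma, and 0 falls at an unadjusted p under 0.05). GRHL3, a grainyhead factor of surface epithelia, averaged 2021 with doxycycline, 225 in PS medium alone and 178 in untreated cells (8.15-fold over PS medium). GRHL1 rose 4.30-fold and KLF4 3.19-fold, with PS means of 89.3 and 106 that lay under the olfactory receptor level, so both folds are uncertain. In PS medium alone 3 of the 12 rose, led by TFAP2A (38.8-fold over untreated cells), and 2 fell, ESRP2 and GRHL2. Of the repressors of epithelial genes, 5 of 13 fell with doxycycline and 0 rose (limma, and 0 unadjusted). In PS medium against untreated cells 7 of the 13 rose and 1 fell. SNAI1, a zinc-finger repressor that binds E-boxes, averaged 418 with doxycycline, 1673 in PS medium alone and 343 in untreated cells. ZEB2, another E-box repressor, averaged 351 with doxycycline, 1087 in PS medium alone and 45.7 in untreated cells.

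Other membrane proteins of the junction rose with doxycycline in 9 of 16 cases and fell in 1, and in PS medium 12 of 16 fell and 1 rose. The exception both times was CLMP, an adhesion molecule related to CXADR, which averaged 529 with doxycycline, 1487 in PS medium alone and 773 in untreated cells. EPCAM, an epithelial adhesion protein that binds claudins, averaged 3897 with doxycycline, 2131 in PS medium alone and 3151 in untreated cells. ST14, the protease matriptase, rose 2.07-fold with doxycycline and was 2.73-fold lower in PS medium alone than in mTeSR1. IGSF5, an immunoglobulin-type junction protein, fell in PS medium and averaged 60.8 with doxycycline, 65.8 in PS medium alone and 251 in untreated cells, the first and second under the olfactory receptor level.

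Among adherens junction and desmosome genes 4 of 16 rose with doxycycline and 0 fell (limma, and 0 unadjusted), and in PS medium 7 fell and 2 rose. PKP2, a desmosomal plakophilin, rose 2.66-fold and CDH1, or E-cadherin, 1.5-fold with doxycycline, while DSC3, a desmocollin, fell in PS medium to 70.9, under the olfactory receptor level, against 200.5 in untreated cells. Polarity partners gave 5 rises and 3 falls of 26 with doxycycline (19.2% and 11.5%, beside 8.91% and 8.44% of all genes). In PS medium they gave 7 rises and 5 falls (26.9% and 19.2%, beside 14.2% and 15.7% of all genes). AMOT, a binding partner of PATJ, averaged 1671 with doxycycline, 191 in PS medium alone and 492 in untreated cells (8.03-fold over PS medium). PARD3B, a paralog of PARD3, rose 3.65-fold with doxycycline, over a PS mean of 119 that lay under the olfactory receptor level. Actomyosin regulators gave 4 rises and 1 fall of 12 with doxycycline and 4 falls in PS medium with 0 rises (limma, and 1 rise unadjusted), SHROOM3 being 2.15-fold lower there.

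**Figure D4:**
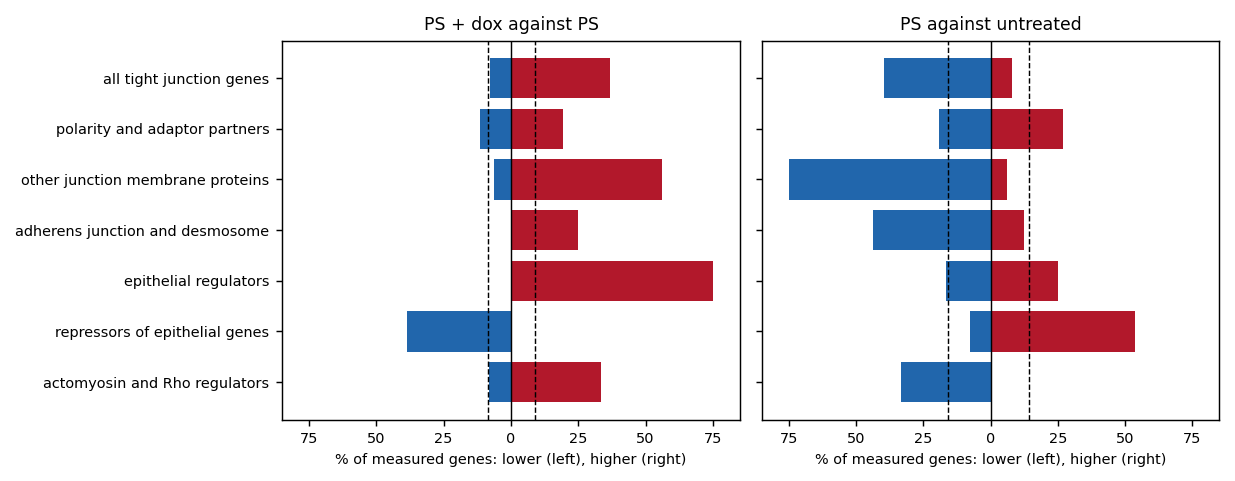
Share of the measured genes of each list that rose (red, to the right) or fell (blue, to the left) at an adjusted p under 0.05, for doxycycline plus PS medium against PS medium alone (left) and PS medium against untreated cells (right). Dashed lines give the shares over all genes, 8.91% and 8.44% on the left and 14.2% and 15.7% on the right; epithelial regulators reach 75% higher on the left and other junction membrane proteins 75% lower on the right.

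Markers of other cell types moved with the same groups. Over all genes, 8.91% were higher and 8.44% lower with doxycycline than in PS medium. The summed intensity of 13 measured amnion and trophectoderm markers, both epithelia, was 37749 to 42007 with doxycycline, 22422 to 24292 in PS medium and 6323 to 6768 in untreated cells, with 8 of 13 higher and 0 lower with doxycycline than in PS medium (limma, and 0 lower at an unadjusted p under 0.05). TFAP2A, a large part of that sum, averaged 17114 with doxycycline, 8439.7 in PS medium alone and 202 in untreated cells. CGA and ELF5, trophoblast genes, lay under the olfactory receptor level in all groups. The sum of 11 primitive streak markers was 15619.7 to 24721 with doxycycline, 78207 to 88693 in PS medium and 2137 to 2263 in untreated cells. EOMES made up most of the PS sum, averaging 12187 with doxycycline, 54452 in PS medium alone and 212 in untreated cells. By gene, 10 of the 11 were lower and 0 higher with doxycycline than in PS medium (limma, and 0 higher at an unadjusted p under 0.05). The sum of 10 definitive endoderm markers was 12193 to 18175 with doxycycline, 35042 to 56293 in PS medium and 1576 to 1682 in untreated cells. With doxycycline 6 of these 10 were lower than in PS medium and 0 higher (limma, and 1 higher at an unadjusted p under 0.05). For 8 neuroectoderm markers the sum was 5792 to 6206 with doxycycline, 9121 to 10316 in PS medium and 6531 to 7263 in untreated cells. OTX2, which is also expressed outside neuroectoderm, averaged 1886 with doxycycline, 5629.9 in PS medium alone and 2613 in untreated cells. PAX6 went the other way, averaging 189 with doxycycline, 62.1 in PS medium alone and 16.6 in untreated cells. Its PS and untreated means lay under the olfactory receptor level, and it passed only with doxycycline against untreated cells (5.68-fold). In each of the doxycycline and PS comparisons, that is against PS medium and of PS medium against untreated cells, 6 of the 8 markers passed in neither direction. The 25% that passed in each stood beside 17.4% and 29.8% of all genes. For 10 fibroblast markers the sum was 3389 to 4195 with doxycycline, 3374 to 3659 in PS medium and 6306 to 6503 in untreated cells. COL3A1, DCN, LUM, FAP and TCF21 lay under the olfactory level in each group. THY1 made up most of the untreated sum and averaged 816 with doxycycline, 1325 in PS medium alone and 4256 in untreated cells. By contrast COL1A2 rose in PS medium, and POSTN averaged 382 with doxycycline, 57.1 in PS medium alone and 42.7 in untreated cells. The sum of 9 pluripotent cell markers was 31235 to 32817 with doxycycline, 25092 to 28354 in PS medium and 39713 to 41420.2 in untreated cells. By gene, 3 of the 9 were higher with doxycycline than in PS medium (SOX2, PODXL and DPPA4) and 1 was lower (L1TD1). SOX2 averaged 3570 with doxycycline, 807 in PS medium alone and 4274 in untreated cells. USP44 stayed low, averaging 597 with doxycycline, 533 in PS medium alone and 3147 in untreated cells. TFAP2A and TFAP2C stand in both the amnion list and the list of epithelial regulators, and GSC in both the streak list and the list of repressors. The part of any of these in the tight junction results was not tested.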

How the data were processed

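Gene expression was measured on 9 one-colour Affymetrix arrays, 3 per group. The deposited values are intensities per probe set on a linear scale, which the authors made with Affymetrix Expression Console 1.1.1 and PLIER 2.0, per the submitters' processing notes. For background correction and between-array normalization: not given in the sources used here. Array medians ran from 200.4 to 216.5; the number of arrays limits the precision.

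Of 33297 probe sets, 19460 had 1 gene symbol, 1754 several and 12083 none listed. By gene number 19429 were matched to GRCh38.p14 symbols. Each gene took its probe set of highest mean. Arrays were quantile-normalized as log2(value + 16) over all probe sets and fitted together, 1 mean per group, with limma 3.58.1 (lmFit, eBayes with a trend) in R 4.3.3. Tested on simulated data, the doxycycline comparison with PS medium (18417 genes) recovered 96% of 100 genes changed 2-fold and 97% of 100 changed 4-fold, with 8 false calls. The simulated arrays varied independently, without the correlation of same-numbered arrays given below. Changes under 2-fold were not simulated, so these rates do not apply to the smaller calls. The members and lists were chosen with earlier results of these data known. Values on each array are given for members past the threshold and changed at least 1.5-fold with doxycycline or in PS medium; smaller calls are named (CLDN7, JAM3, TJP1, PARD6B and PATJ also have array values, a choice made after their values were seen), the rest given by range; up to 3 genes per other list are named. The labels do not say that replicates were separate cultures, so the p-values reflect only how far these samples vary, possibly for technical reasons.

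Deviations from group means of same-numbered arrays correlated over genes at 0.245, 0.428 and 0.246 (doxycycline with PS medium), 0.246, 0.309 and 0.297 (doxycycline with untreated) and 0.086, 0.397 and 0.271 (PS medium with untreated). All exceeded 0.1 in both doxycycline comparisons, which met the criterion for pairing, from the data and not the labels; the values given are nevertheless from the fit without the block, which is an alternative. Alternatives covered the log offset, normalization, dim genes, probe sets, groups fitted, variance trend, replicate block and each array left out.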

Additional observations from a re-analysis of the deposited data

How the results depend on the processing

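The counts of tight junction genes that rose or fell with doxycycline against PS medium, and in PS medium against untreated cells, stayed within 1.5 times of the values given under every alternative run. Against untreated cells, the 7 genes lower with doxycycline became 4 after median centring and 3 to 9 as single arrays were left out. With the replicate number as a block, there were 14 rises and 3 falls with doxycycline against PS medium, and 9 rises and 10 falls against untreated cells. In PS medium against untreated cells the block gave 3 rises and 19 falls. There 1 correlation (0.086) missed the criterion of 0.1, though each same-numbered pair correlated more than differently numbered ones. The falls added there were TJP1 (limma adjusted p = 0.0342), PARD6B (0.0094), CRB3 (0.0344) and CLDN19 (0.0215). Beside the 5 genes that passed against untreated cells under the block, given above, it changed no other call in the doxycycline comparisons. Of 1025 values of single genes under the alternatives, 957 kept their side of the threshold, 52 lost the call and 16 gained it. Among them 0 called values changed sign, and the cause was not tested. They cover the 14 genes changed at least 1.5-fold and, in each comparison, any other gene called there. Gains of other genes, such as CLDN19 under the block, are not in that count. Differences near 0 that did not pass could change sign, as MAGI3 with doxycycline against PS medium did without PS replicate 3 (0.002 in place of -0.24). With the dimmest 25% of genes left out, 29 of the 38 genes were tested and the median difference with doxycycline was 0.23 in place of 0.11. Signal near background limits the 10 dim claudins.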
